A study of Homo sapiens with 18 samples.

Results

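The genes described here are 8 transcripts of choroid plexus epithelium, TTR, CLIC6, FOLR1, KL, AQP1, SLC4A5, PRLR and FOXJ1, read by gene symbol from 53853 rows of the deposited count and TPM tables. All 8 were found, each in 1 row, and all 8 were among the 17567 genes that passed the filter on low counts. They were measured by bulk RNA sequencing of human cerebral organoids, balls of neural tissue grown from pluripotent cells. These were of ventral forebrain type, came from 2 embryonic stem cell lines, H9 and H1, and were taken at day 83. Chronic organoids had 1 µM dopamine daily for 1 week with a last exposure of 1 hour. Acute organoids had 1 hour of 1 µM dopamine after a week of ascorbic acid alone, and control organoids had ascorbic acid alone. Ascorbic acid, the vehicle, was at 100 µM in all 6 groups, so no group was free of it. Each line was 1 stem cell line without genetic change named in the labels, and each group had 3 libraries.

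The choroid plexus is a folded epithelium in the brain ventricles that secretes cerebrospinal fluid and forms the barrier between blood and that fluid. It arises from the dorsal midline of the neural tube, under BMP and WNT signals from the cortical hem and roof plate. Its cells secrete transthyretin, the carrier of thyroid hormone and of retinol with its binding protein, and they move water, bicarbonate and folate across their apical face. They carry tufts of motile cilia, built under the transcription factor FOXJ1, which ependymal cells and the floor plate also use.

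Depth was 13647204 to 21691180 counts in 17 libraries. Library 9, an H1 control, held 43284 counts and 0 counts of every gene among the 8, and it was left out of all means and tests, so H1 control had 2 libraries. A floor of 3 counts stood at 0.138 to 0.22 CPM by total count in the other 17, which covers counting error only. All other CPM are counts scaled to library size by TMM. The labels do not say whether the replicates of a group were separate cultures. The p-values therefore measure replicate spread that could be technical only. Where groups are said below not to overlap, the share of all tested genes that separate in the same way was not counted. Neuronal genes were abundant in every library, with 10 genes summing to 11096 to 13420 CPM in H9 and 5942 to 7364 CPM in H1. Transcripts of blood exceeded those of gut in libraries 13, 17 and 18 of H9 and 4 and 8 of H1, and neither is a tissue such organoids are made to contain.

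The 8 genes lie on 8 chromosomes of GRCh38, placed by symbol in GENCODE release 44. TTR lies on chromosome 18 from 31557009 to 31598833 on the plus strand, CLIC6 on chromosome 21 from 34668994 to 34718227 on the plus strand, and FOLR1 on chromosome 11 from 72189558 to 72196323 on the plus strand. KL lies on chromosome 13 from 33016423 to 33066143 on the plus strand, AQP1 on chromosome 7 from 30911853 to 30925517 on the plus strand, and SLC4A5 on chromosome 2 from 74216242 to 74343416 on the minus strand. PRLR lies on chromosome 5 from 35048756 to 35230487 and FOXJ1 on chromosome 17 from 76136333 to 76141245, both on the minus strand. All 8 are protein coding.

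The 250 bases before the annotated start are shown for KL and PRLR, the pair of genes whose levels separated the stem cell lines in every library, and for AQP1, the transporter that varied most between H1 libraries. The sequences are from RefSeq promoter windows of GRCh38.p14, which matched 4 of the 8 genes (SLC4A5 was the fourth). They run 5′ to 3′ on the strand of the gene, and capitals mark a match to TATAAA. KL is chr13:33016173-33016422 on the plus strand, PRLR is chr5:35230488-35230737 on the minus strand, and AQP1 is chr7:30911603-30911852 on the plus strand.
KL: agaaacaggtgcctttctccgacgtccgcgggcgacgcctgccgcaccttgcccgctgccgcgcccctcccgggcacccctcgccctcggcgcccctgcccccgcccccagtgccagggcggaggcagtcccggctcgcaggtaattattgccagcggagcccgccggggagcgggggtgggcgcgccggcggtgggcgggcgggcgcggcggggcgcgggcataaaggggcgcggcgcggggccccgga
PRLR: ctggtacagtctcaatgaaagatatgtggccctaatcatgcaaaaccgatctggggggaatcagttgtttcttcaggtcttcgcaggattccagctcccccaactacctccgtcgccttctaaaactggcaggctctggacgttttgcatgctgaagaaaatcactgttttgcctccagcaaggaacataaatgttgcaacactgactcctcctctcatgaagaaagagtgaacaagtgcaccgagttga
AQP1: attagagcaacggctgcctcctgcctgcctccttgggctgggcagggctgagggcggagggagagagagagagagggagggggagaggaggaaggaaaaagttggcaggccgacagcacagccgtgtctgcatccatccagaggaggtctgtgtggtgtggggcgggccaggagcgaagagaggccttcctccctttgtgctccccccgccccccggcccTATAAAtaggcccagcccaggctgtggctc
Each window was searched on both strands for 4 motifs, with 35116 promoter windows of that length as the background. A homeodomain site of the OTX type (TAATCC) was in 5.62% of those windows. An RFX site (GTTGCC) was in 10.2%. A forkhead site (TGTTTAC) was in 2.98%. A TATA box (TATAAA) was in 10.7%. The AQP1 window held a TATA box on its own strand, at -30 to -25 from the start, and none of the other motifs. The KL window and the PRLR window above held none of the 4. A second PRLR window in the table, chr5:35118123-35118372 on the minus strand and not shown, held a TATA box on the opposite strand, at -194 to -189 from its start.

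On the per-length scale (TPM), FOXJ1 had the highest median in H9, at 12.8 TPM over 9 libraries. SLC4A5 followed at 4.0 TPM, TTR at 3.80, AQP1 at 2.58 and PRLR at 1.37, and KL at 0.63, FOLR1 at 0.47 and CLIC6 at 0.26 TPM were lowest. In H1, over 8 libraries, the order was SLC4A5 at 4.915 TPM, FOXJ1 at 4.85, AQP1 at 3.36 and TTR at 3.33, then FOLR1 at 0.64, PRLR at 0.555, CLIC6 at 0.12 and KL at 0.11. Neighbours in both orders overlapped in their ranges over libraries. The median hides the range of TTR, which ran from 1.43 to 16.6 TPM in H9 and from 1.22 to 461 TPM in H1. The highest library exceeded the lowest in CPM 11.6-fold in H9 and 369-fold in H1 for TTR. For SLC4A5 that ratio was 1.34 in H9 and 2.27 in H1.

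**Figure D1:**
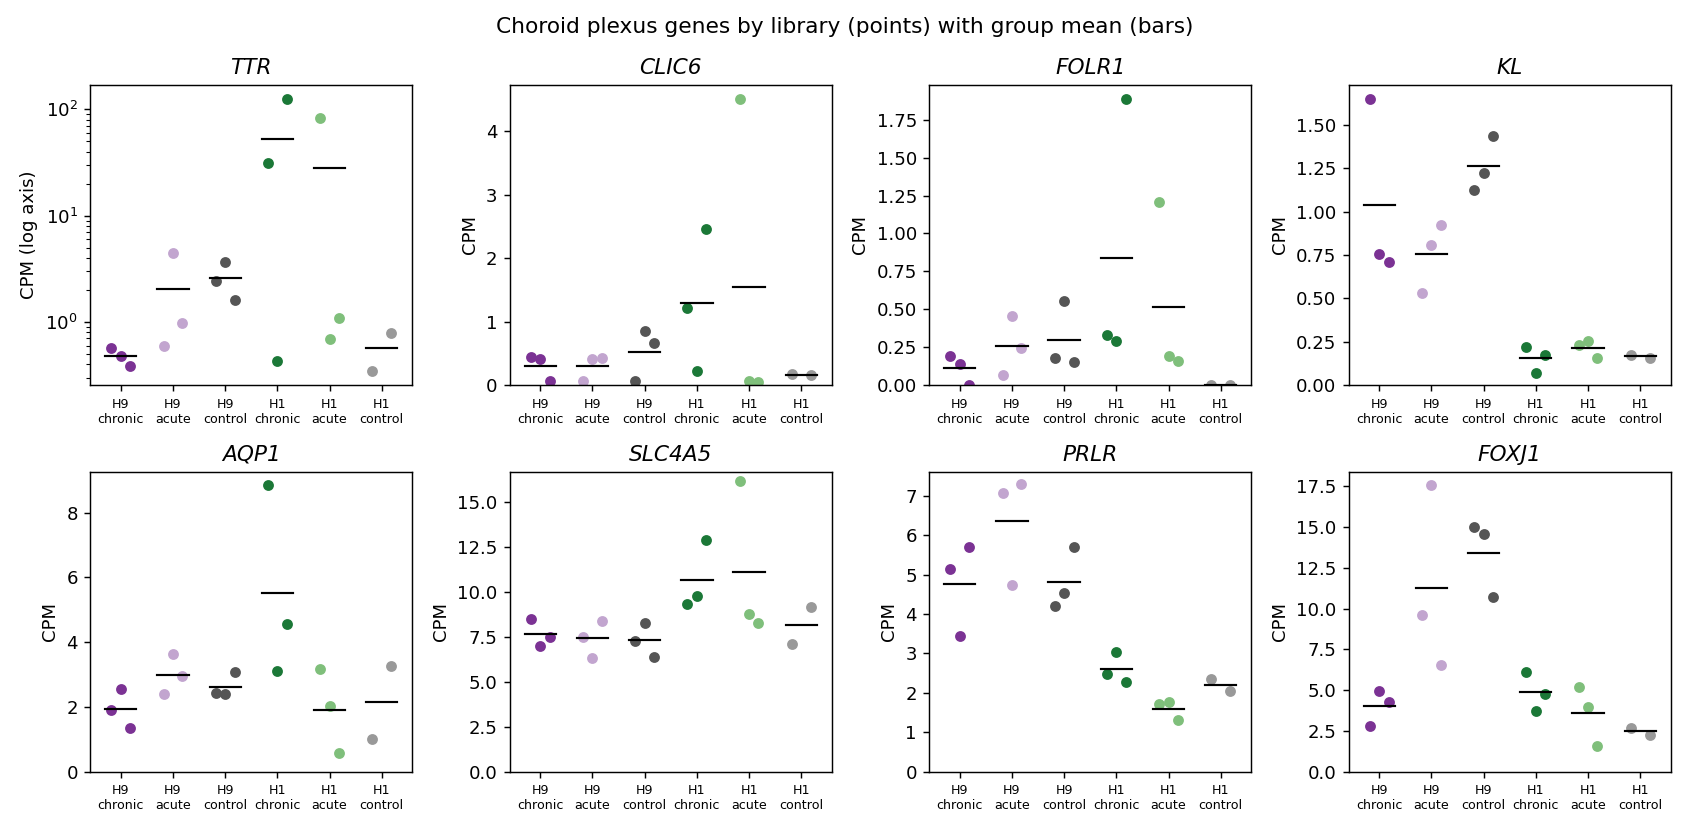
TMM-normalised CPM (vertical axes, logarithmic for TTR) of the 8 genes in 17 libraries (points), by line and treatment, with the group mean as a bar. Libraries 1, 3 and 4 of H1 stand far above the other H1 libraries for TTR and CLIC6, KL and PRLR are higher in every H9 library than in any H1 library, and FOXJ1 is lowest among H9 groups in chronic organoids.

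TTR, the secreted thyroid hormone carrier and a very abundant transcript of mature choroid plexus epithelium, was high in only 3 of 17 libraries, all of them H1 and all treated with dopamine. In H1, chronic libraries 1, 2 and 3 had 31.4, 0.433 and 127 CPM, acute libraries 4, 5 and 6 had 82.4, 0.695 and 1.10 CPM, and control libraries 7 and 8 had 0.342 and 0.790 CPM. Libraries 1, 3 and 4 stood far above every other H1 library, while chronic library 2 and both other acute libraries lay near the controls, so the treated groups overlapped the controls. In raw counts these 3 libraries held 567, 2214 and 1774 reads of TTR, and the other 5 held 6 to 21. TTR averaged 52.8 ± 65.7 CPM in chronic, 28.1 ± 47.1 in acute (SD, n = 3 each) and 0.566 ± 0.316 CPM in control organoids (SD, n = 2).

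The fitted log2 fold change of TTR in H1 was 6.51 ± 2.11 (SE) for chronic against control, with an adjusted p of 0.174 by the edgeR quasi-likelihood test, and 5.61 ± 2.09 for acute against control, with an adjusted p of 1. The acute value rested on library 4: without it the log2 fold change was 0.66. DESeq2 gave the chronic contrast an adjusted p of 0.00707, edgeR without the low-count filter 0.00306, and edgeR without library 4, which is no part of that contrast, 0.0342. In bulk RNA, more cells of a type and more RNA per cell cannot be told apart.

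In H9, TTR was low throughout, at 0.572, 0.481 and 0.388 CPM in chronic libraries, 0.600, 4.49 and 0.983 CPM in acute libraries and 2.43, 3.67 and 1.59 CPM in control libraries. Every chronic library lay below every control library and every acute library, while acute and control overlapped. Behind these values stood 9, 7 and 6 reads in chronic, 9, 89 and 16 in acute and 41, 60 and 31 in control libraries, so that chronic library 10 and acute library 13 held equal counts. The log2 fold change for chronic against control was -2.38 ± 2.16 with an edgeR adjusted p of 0.721, so the difference did not pass the test. The authors' deposited table for chronic dopamine, of 213 genes, lists TTR with an FDR p of 0.00714 and FOXJ1 with an FDR p of 1.68e-05. In the authors' deposited table the log2 fold change (2.4 for TTR, 1.75 for FOXJ1) and the signed fold change (-5.27 and -3.36) have opposite signs, and its header does not name the groups or the direction. The authors' deposited table for acute dopamine lists none (0) of the 8 genes among 55.

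CLIC6, a chloride intracellular channel family member of choroid plexus, and FOLR1, the folate receptor that carries folate into cerebrospinal fluid, were highest in the same H1 libraries. CLIC6 had 1.22, 0.216 and 2.46 CPM in H1 chronic libraries 1 to 3, 4.51, 0.0632 and 0.0521 CPM in acute libraries 4 to 6, and 0.171 and 0.158 CPM in control libraries 7 and 8. Its fold change on the log2 scale was 2.95 ± 1.54 for chronic (edgeR adjusted p 0.533) and 3.22 ± 1.52 for acute (edgeR adjusted p 1), and the acute value was -1.41 without library 4. FOLR1 had 6, 4 and 33 reads in H1 chronic libraries, 26, 3 and 3 in acute libraries and 0 in both control libraries. Against a floor of 3 counts over the H1 control group, FOLR1 was at least 11-fold higher in chronic and at least 6.91-fold higher in acute organoids. Those bounds were 3.96 without library 3 and 2.08 without library 4, and neither contrast passed the edgeR test (adjusted p 0.121 and 1). For chronic against control, FOLR1 did pass in edgeR without the low-count filter and in limma on log2(TPM + 0.1), there at an adjusted p of 0.0491.

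In H9, CLIC6 had 0.445, 0.413 and 0.0646 CPM in chronic, 0.0667, 0.403 and 0.430 CPM in acute and 0.0592, 0.857 and 0.668 CPM in control libraries, and the 3 groups overlapped. FOLR1 had 3, 2 and 0 reads in H9 chronic, 1, 9 and 4 in acute and 3, 9 and 3 in control libraries, which also overlapped. No treatment contrast of either gene in H9 passed the edgeR test, and 0 to 14 reads per library limit what could be detected.

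Some other genes of choroid plexus epithelium, picked out of the list of 30 after their values were seen, were also highest among H1 libraries in these 3, while the list as a whole was not. KCNJ13, a potassium channel of its apical membrane, had 8, 47 and 48 reads in libraries 1, 3 and 4, 1 to 2 in the other 5 H1 libraries and 0 to 3 in H9 libraries. SLC13A4, a sulfate transporter, had 20, 59 and 71 reads in those 3 libraries, against 2 to 5 in the other H1 libraries and 0 to 3 in H9. WFIKKN2, a secreted protease inhibitor, had 22, 57 and 80 reads there and 10 to 16 in the other H1 libraries, and reached 50 in H9. Scaled for depth, library 1 had 1.22 CPM of it, close to the 1.15 CPM of library 2, while libraries 3 and 4 had 3.26 and 3.72 CPM. HTR2C, the serotonin receptor of this epithelium, had 52, 114 and 64 reads there and 10 to 18 in the other H1 libraries, although every H9 library had more, 470 to 713 reads. KCNE2, a potassium channel subunit, had 2, 3 and 6 reads in libraries 1, 3 and 4, against 11 in library 6, 7 in library 7 and 0 in libraries 2, 5 and 8. The whole list, of which 29 genes were found, summed to 767, 762 and 730 CPM in libraries 1, 3 and 4, against 679 to 746 CPM in the other H1 libraries, so library 4 lay within their range. SLC22A8, an organic anion transporter, had 3 reads in library 4, 2 in library 18 and 0 in the rest, and CLDN2, a tight junction protein of the epithelium, had 0 to 8 reads in every library.

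**Figure D2:**
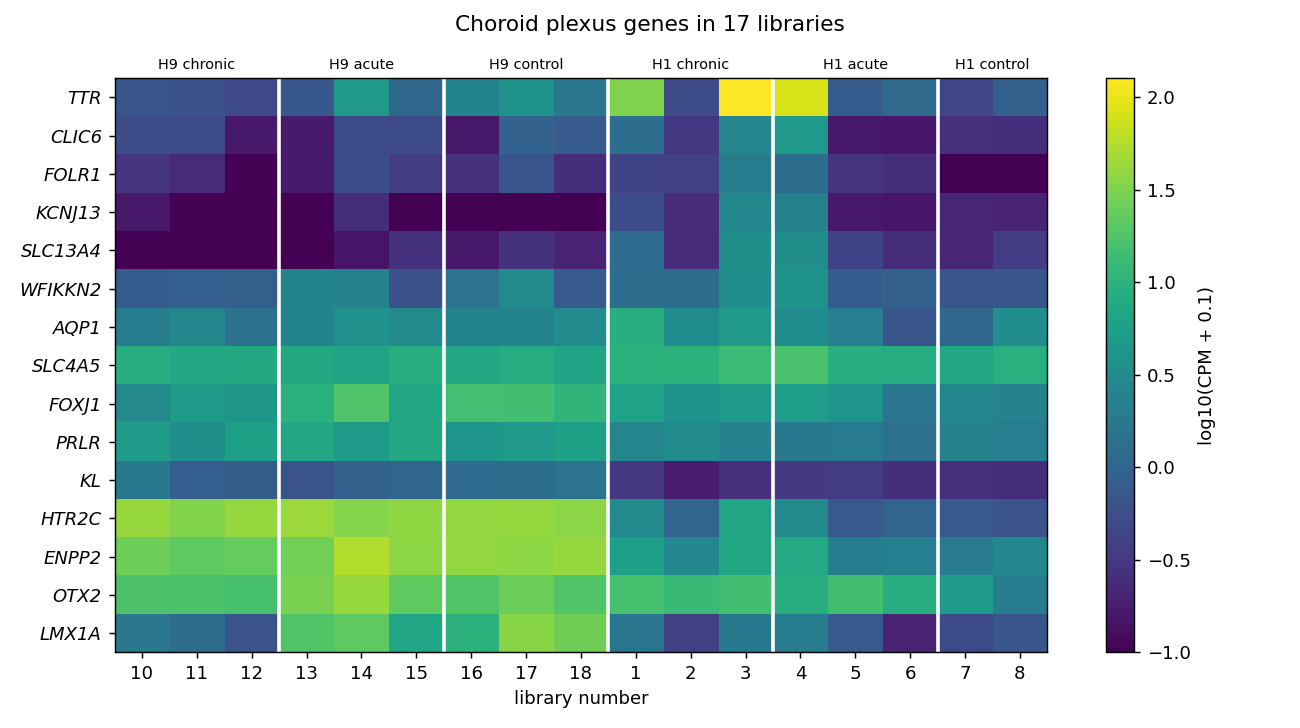
log10(CPM + 0.1) (colour) of the 8 genes and of 7 other genes with choroid plexus or dorsal midline expression in 17 libraries (columns, numbered, grouped by line and treatment). TTR, CLIC6, KCNJ13 and SLC13A4 are brightest in H1 libraries 1, 3 and 4, FOLR1 is brightest in libraries 3 and 4, whereas HTR2C, ENPP2, PRLR and KL are brighter in the H9 columns.

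TTR is also made by liver and by retinal pigment epithelium, which shares KCNJ13 with the choroid plexus. The 14 liver and endoderm genes summed to 4.1 and 2.0 CPM in libraries 1 and 3 and 3.0 CPM in library 4, against 0.8 to 4.0 CPM in the other H1 libraries. Much of these sums was FOXA1, at 2.71, 1.14 and 1.53 CPM in libraries 1, 3 and 4, a gene not specific to liver. ALB had 4, 1 and 0 reads. The 12 retinal pigment epithelium genes summed to 30.6 to 36.4 CPM in H1 chronic, 17.8 to 27.5 CPM in acute and 16.3 to 16.95 CPM in control organoids. Libraries 1, 3 and 4 had 32.5, 36.4 and 27.5 CPM of them, and acute libraries 5 and 6 had 21.7 and 17.8 CPM. Chronic library 2, with TTR at 0.433 CPM, had 30.6 CPM, and H9 libraries, low in TTR, had 56.4 to 70.2 CPM. Of 10 tested genes of that list 4 passed as higher in H1 chronic against control and 0 as lower, namely TYRP1, TYR, PMEL and RPE65, enzymes and structural proteins of pigment cells and of the visual cycle. Their part in the TTR values was not tested.

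Of 24 tested genes among 30 others known from choroid plexus, 1 passed as higher and 0 as lower in H1 chronic against control. It was OTX2, the transcription factor needed for choroid plexus development, with 12.3 to 15.8 CPM in chronic and 1.90 to 5.08 CPM in control libraries and a log2 fold change of 2.04 ± 0.36 (edgeR adjusted p 0.0098). The median log2 fold change of the list was 0.84, with 21 of 24 above 0, beside 0.01 over all tested genes. Other lists had larger medians in the same contrast. Mesenchyme had a median of 1.55, with 0 of 10 tested genes passing, and summed to 97.7 to 147 CPM in H1 chronic, 60.4 to 80.1 CPM in acute and 51.0 to 51.8 CPM in control libraries. Astrocyte genes had a median of 1.62, with 2 of 8 passing as higher, and hem and roof plate genes had 1.81, with 1 of 11 passing as higher. Endothelial genes had 1.58, with 0 of 4 passing, and the retinal pigment epithelium genes above had 1.01. The part of these lists in the choroid plexus median was not tested. For acute against control 0 of the 24 choroid plexus genes passed, with a median of 0.57 beside 0.01 over all tested genes. Acute library 5, with TTR at 0.695 CPM, had 14.6 CPM of OTX2, more than the 8.41 CPM of library 4, so OTX2 did not follow TTR from library to library.

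Among the transporters, AQP1, the water channel of the apical membrane, had 8.85, 3.10 and 4.57 CPM in H1 chronic, 3.16, 2.02 and 0.574 CPM in H1 acute and 1.03 and 3.26 CPM in H1 control libraries. Library 1 was highest, and chronic library 2 lay below control library 8, so the groups overlapped. Its log2 fold change was 1.36 ± 0.55 for chronic against control (edgeR adjusted p 0.346) and 1.52 ± 0.49 for chronic against acute (edgeR adjusted p 0.471). In H9, AQP1 stood at 1.91, 2.54 and 1.36 CPM in chronic, 2.40, 3.63 and 2.95 CPM in acute and 2.43, 2.39 and 3.08 CPM in control libraries, with a log2 fold change of -0.45 ± 0.51 for chronic against control (edgeR adjusted p 0.783).

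SLC4A5, a sodium bicarbonate cotransporter, varied least of the 8 in H9. It averaged 7.67 ± 0.76 CPM in chronic, 7.43 ± 1.04 CPM in acute and 7.32 ± 0.93 CPM in control organoids (SD, n = 3 each), with a log2 fold change of 0.07 ± 0.23 for chronic against control (edgeR adjusted p 0.943). In H1 it had 9.35, 9.81 and 12.9 CPM in chronic, 16.2, 8.79 and 8.29 CPM in acute and 7.14 and 9.16 CPM in control libraries. Libraries 3 and 4, high in TTR, were again the highest pair, and library 1 was not. The log2 fold change in H1 was 0.39 ± 0.26 for chronic (edgeR adjusted p 0.674) and 0.45 ± 0.26 for acute (edgeR adjusted p 1).

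The receptors KL and PRLR separated the stem cell lines, and no treatment contrast of either passed the edgeR test. By edgeR 74.5% of all tested genes passed between the lines, and the share whose libraries did not overlap was not counted. KL encodes alpha-klotho, the co-receptor that lets FGF receptors bind FGF23, and its outer part is shed into cerebrospinal fluid. It had 1.65, 0.756 and 0.711 CPM in H9 chronic, 0.533, 0.806 and 0.921 CPM in H9 acute and 1.13, 1.23 and 1.44 CPM in H9 control libraries. In H1 it had 0.221, 0.0721 and 0.171 CPM in chronic, 0.232, 0.253 and 0.156 CPM in acute and 0.171 and 0.158 CPM in control libraries. The lowest H9 library was above the highest H1 library, and within each line the chronic and control groups overlapped. In H9 all 3 acute libraries lay below all 3 control libraries, with a log2 fold change of -0.73 ± 0.39 (edgeR adjusted p 1). The H1 values rest on 1 to 5 reads per library, against 8 to 28 in H9.

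PRLR, the prolactin receptor, a cytokine receptor found on choroid plexus cells, had 5.14, 3.44 and 5.69 CPM in H9 chronic, 7.07, 4.74 and 7.31 CPM in H9 acute and 4.21, 4.53 and 5.70 CPM in H9 control libraries. H1 libraries had 2.49, 3.03 and 2.29 CPM in chronic, 1.72, 1.77 and 1.30 CPM in acute and 2.34 and 2.05 CPM in control organoids. Every H9 library exceeded every H1 library. In H1 the acute libraries were all below the chronic and control libraries, but the log2 fold change of 0.70 ± 0.26 for chronic against acute had an edgeR adjusted p of 0.58. The ligands were at the floor: PRL and FGF23 had 0 to 2 reads in each library.

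FOXJ1 fell in chronic H9 organoids and by edgeR was the only gene of the 8 to pass a treatment contrast within a line, 1 of 8 where 0.649% of all tested genes passed. H9 chronic libraries had 2.79, 4.95 and 4.27 CPM, acute libraries 9.60, 17.6 and 6.57 CPM and control libraries 15.0, 14.6 and 10.7 CPM. All chronic libraries were below all acute and all control libraries, and acute and control overlapped. How many of all tested genes separate these groups in this way was not counted. FOXJ1 averaged 4.004 ± 1.10 CPM in chronic, 11.3 ± 5.69 CPM in acute and 13.4 ± 2.35 CPM in control organoids (SD, n = 3 each). The log2 fold change was -1.75 ± 0.38 for chronic against control, with an edgeR adjusted p of 0.0457, and -1.50 ± 0.38 for chronic against acute, with an edgeR adjusted p of 0.0566.

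The call for chronic against control is close to the threshold. It held in 5 of 17 fits that left out 1 library each, those without library 4, 6, 14, 15 or 18, and adjusted p ran from 0.0212 without library 14 to 0.186 without library 17, with log2 fold changes of -1.91 to -1.54. It was lost when only the libraries compared were fitted (adjusted p 0.0761) and with the blood and gut split as a covariate (adjusted p 0.138), while the fold change stayed at -1.75 and -1.73. DESeq2 gave an adjusted p of 0.00103, and chronic against acute passed in DESeq2 with an adjusted p of 0.00596.

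In H1, FOXJ1 had 6.14, 3.75 and 4.74 CPM in chronic, 5.20, 3.98 and 1.56 CPM in acute and 2.68 and 2.26 CPM in control libraries. All chronic libraries were above both controls, and acute libraries overlapped them. The log2 fold change for chronic against control was 0.99 ± 0.46 with an edgeR adjusted p of 0.444. The effect of chronic dopamine on FOXJ1 differed between the lines, with an H9 minus H1 difference of -2.73 ± 0.59 and an edgeR adjusted p of 0.0258, in a contrast that 1.72% of all tested genes passed. That call held in 12 of 17 fits without 1 library and was lost without library 1, 7, 8, 16 or 17, with adjusted p of 0.0511 to 0.188. It held in all 10 other fits.

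**Figure D3:**
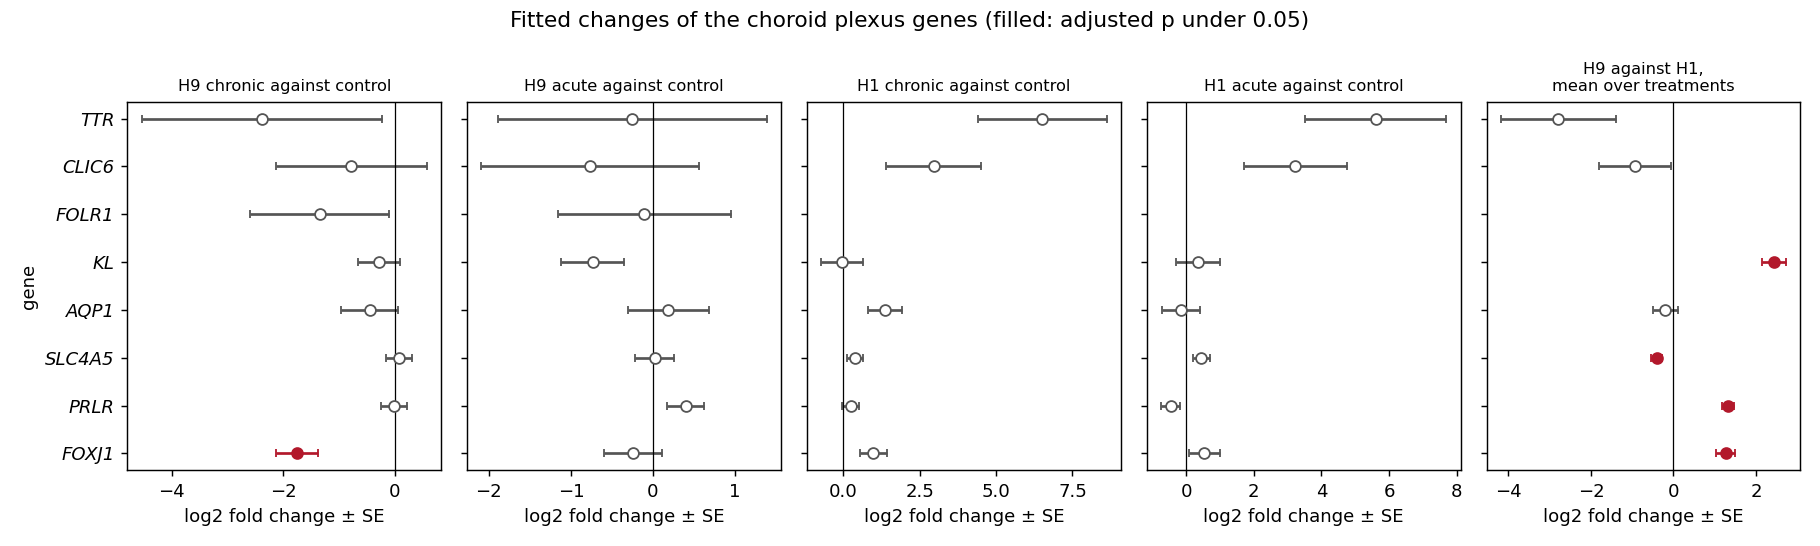
Fitted log2 fold change ± SE (horizontal axes, 1 scale per panel) of the 8 genes (rows) in 5 comparisons, with filled red points at an edgeR adjusted p under 0.05. FOXJ1 passes in H9 chronic against control (-1.75), 4 genes pass in H9 against H1, where 74.5% of all tested genes do, and none (0) passes in H9 acute, H1 chronic or H1 acute. FOLR1 is not drawn where the H1 controls, at 0 counts, enter.

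Other genes of motile cilia were read from a list of 28, of which 25 were tested. In H9 chronic against control 0 passed as higher and 2 as lower, CFAP126, a ciliary axoneme protein, at a log2 fold change of -1.64 ± 0.33 (edgeR adjusted p 0.0321) and RFX2, a transcription factor of ciliary genes, at -0.74 ± 0.16 (edgeR adjusted p 0.0457). None (0) of the 25 had a fold change above 0, and their median was -0.75 beside 0.01 over all tested genes. The list summed to 189 to 222 CPM in H9 chronic, 265 to 355 CPM in acute and 279 to 336 CPM in control libraries, and chronic did not overlap the other groups. In H1 chronic against control 1 passed as higher and 0 as lower, TPPP3, a tubulin-binding protein, at 1.97 ± 0.48 (edgeR adjusted p 0.0488), and 24 of 25 were above 0 with a median of 0.63. These counts were 0 to 2 lower in H9 and 0 to 2 higher in H1 without single libraries, and DESeq2 gave 2 lower in H9 and 5 higher in H1. MCIDAS, a switch for multiciliated cells, had 0 to 2 reads in each library.

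FOXJ1 is not specific to choroid plexus, and some midline genes were also lower in H9 chronic organoids. Of 24 other choroid plexus genes tested in H9 chronic against control, 0 passed as higher and 1 as lower, with a median of -0.08. That gene was LMX1A, a transcription factor of hem, roof plate and floor plate, at 0.517 to 1.59 CPM in chronic, 6.82 to 21.6 CPM in acute and 9.83 to 35.0 CPM in control libraries. Its log2 fold change was -4.44 ± 0.67 (edgeR adjusted p 0.0109). Among 11 tested genes of cortical hem and roof plate 3 passed as lower and 0 as higher, LMX1A and the WNT agonists RSPO2 (-2.36 ± 0.48) and RSPO3 (-1.92 ± 0.38, edgeR adjusted p 0.0321 and 0.0302).

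Floor plate genes, a list of 8 put together after these values were seen, summed to 556, 506 and 502 CPM in H9 chronic libraries, 695, 1257 and 751 CPM in acute libraries and 1211, 1061 and 1055 CPM in control libraries. The chronic libraries were below all others. SPON1 alone had 233 to 283 CPM in H9 chronic, 363 to 679 CPM in acute and 537 to 662 CPM in control libraries. A list chosen after the values were seen is a description and no test. In H1 they summed to 120 to 260 CPM in chronic, 68.6 to 123 CPM in acute and 60.4 to 83.9 CPM in control libraries. FOXA1, a forkhead factor of that tissue, is held by the liver and endoderm list above. It had 3.36 to 7.05 CPM in H9 chronic and 24.9 to 33.7 CPM in H9 control libraries, with a log2 fold change of -2.51 ± 0.47 (edgeR adjusted p 0.027).

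Markers of mesenchyme moved in the same contrast. Of 10 tested, 4 passed as lower and 0 as higher in H9 chronic, the collagens COL1A1, COL1A2 and COL3A1 and the matrix proteoglycan DCN. COL1A1 nevertheless overlapped, at 1.10 to 1.27 CPM in chronic and 1.01 to 149 CPM in control libraries. The list summed to 44.9 to 52.9 CPM in chronic, 79.8 to 177 CPM in acute and 79.1 to 437 CPM in control libraries. Blood genes summed to 0.1 to 1.1 CPM in H9 chronic, 0.6 to 49.8 CPM in acute and 1.9 to 147 CPM in control libraries. In H9 control libraries 16, 17 and 18, FOXJ1 was 15.0, 14.6 and 10.7 CPM. Mesenchyme genes summed to 79.1, 437 and 363 CPM there, and blood genes to 1.9, 65.7 and 147 CPM. The part of mesenchyme in the fall of FOXJ1 was not tested. That of blood was not tested beyond the covariate fit above, which used only the blood and gut split.

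**Figure D4:**
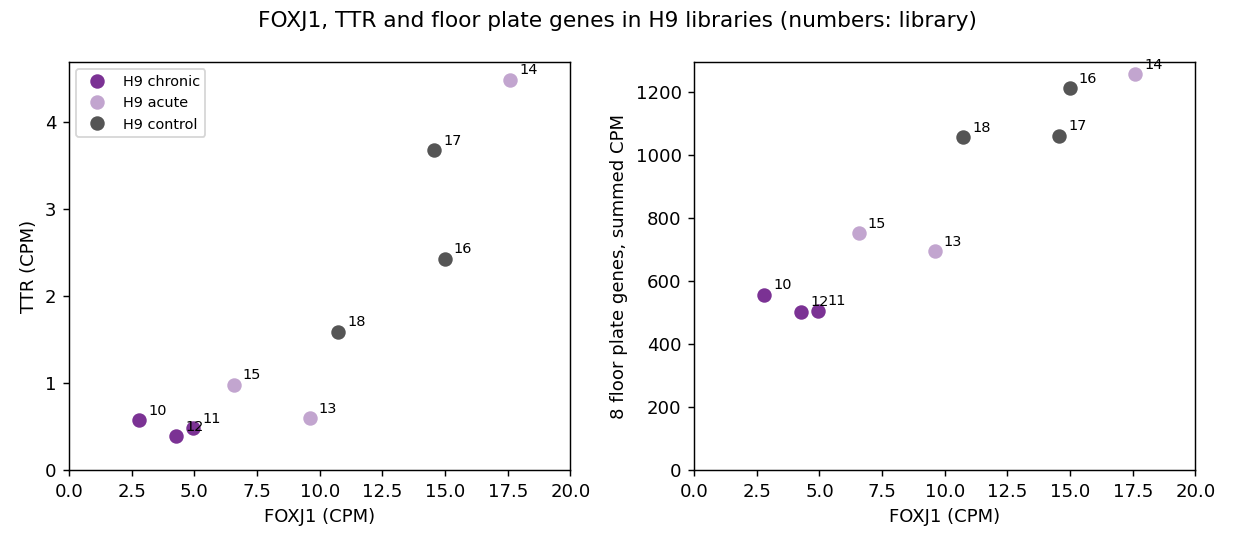
FOXJ1 (CPM, horizontal axes) against TTR (CPM, left) and against the summed CPM of 8 floor plate genes (right) in the 9 H9 libraries, numbered and coloured by treatment. Chronic libraries 10, 11 and 12 lie at the low end of all 3 measures and acute library 14 at the high end. SPON1 makes up a large part of the floor plate sums.

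Across the 9 H9 libraries, TTR varied with FOXJ1 at Pearson r = 0.871 and Spearman rho = 0.917 on log2(CPM + 1). The p-values from exact permutation, adjusted over the 7 pairs with TTR, were 0.0146 and 0.00918. Without libraries 14 and 17, the farthest from the median of TTR, r was 0.814 over 7 libraries. Within the 6 H9 libraries with more gut than blood reads r was 0.939 (exact permutation, adjusted p 0.0486). Those were chronic libraries 10, 11 and 12, acute libraries 14 and 15 and control library 16. The 9 points span 3 treatments, and chronic libraries were the lowest in both genes. The permutations moved libraries across treatments, so neither r can be told apart from a difference between treatments. TTR with FOLR1 gave r = 0.844 and rho = 0.767 (exact permutation, adjusted p 0.0146 and 0.0749), but r was 0.485 without those 2 libraries, so the relation rests on them. The other 5 pairs gave r between -0.31 and 0.60 with adjusted p of 0.201 and above (exact permutation). In H1 the libraries fell into 2 clusters by TTR, 3 against 5, each under 6 libraries, so no pooled r is given as a test for H1.

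Genes whose levels most resembled TTR were ranked by the smaller of the 2 Pearson r values in H9 (9 libraries) and in H1 (8 libraries), where r rests on libraries 1, 3 and 4. They were SLC2A12, a glucose transporter, at 0.935, WDR38, a WD-repeat protein, at 0.911, COLEC12, a scavenger receptor, at 0.905, EFHC2, an axonemal protein, at 0.898, and RPGR, a protein of the ciliary transition zone, at 0.893. SLC2A12 had 14.6, 15.0 and 15.4 CPM in libraries 1, 3 and 4, against 11.7 to 12.6 CPM in the other H1 libraries. FOLR1 ranked 12 by this measure and FOXJ1 ranked 65. The others of the genes described here ranked lower, AQP1 at 186, CLIC6 at 899, KL at 2311, PRLR at 10150 and SLC4A5 at 10705. In H9, r with TTR was negative for PRLR (-0.28) and SLC4A5 (-0.31).

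Between lines, averaged over treatments, 4 of the 8 genes passed, where 74.5% of all tested genes passed, so the share of these genes is not above the background. KL was higher in H9 than H1 by a log2 fold change of 2.45 ± 0.29 (edgeR adjusted p 7.37e-07), PRLR by 1.33 ± 0.15 (edgeR adjusted p 2.86e-07) and FOXJ1 by 1.26 ± 0.23 (edgeR adjusted p 0.000112). SLC4A5 was lower in H9, at -0.41 ± 0.14 (edgeR adjusted p 0.0137), with ranges of 6.35 to 8.51 CPM in H9 and 7.14 to 16.2 CPM in H1 that overlapped. It did not pass without library 8 (adjusted p 0.0557) or in limma on log2(TPM + 0.1) (adjusted p 0.0507). TTR had a log2 fold change of -2.79 ± 1.40 (edgeR adjusted p 0.0808), CLIC6 -0.93 ± 0.86 (edgeR adjusted p 0.342) and AQP1 -0.20 ± 0.30 (edgeR adjusted p 0.563). FOLR1 did not pass (edgeR adjusted p 0.561). TTR passed as lower in H9 with DESeq2 (adjusted p 0.00362) and in edgeR without the low-count filter (adjusted p 0.00858). KL, PRLR and FOXJ1 passed in all 17 fits without 1 library.

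Within lines, the count of the 8 genes that passed was 1 in H9 chronic against control, where 0.649% of all tested genes passed, and 0 in H9 acute against control, where 0% did. It was 0 in H9 chronic against acute (1.45% of all tested genes), 0 in H1 chronic against control (1.59%), 0 in H1 acute against control (0.0114%) and 0 in H1 chronic against acute (0.0455%). For the difference between lines it was 1 for the chronic effect (1.72% of all tested genes) and 0 for the acute effect (0%). At an unadjusted p under 0.05 by edgeR, 4 of these genes were counted in H1 chronic, where 10.8% of all tested genes were, 3 in H1 acute (3.53%) and 2 in H1 chronic against acute (6.81%). In H9 the counts were 0 in acute (2.99%) and 1 in chronic against acute (17.8%), and for the difference of the acute effect 3 (4.07%). DESeq2 passed 1 gene, TTR, in H1 chronic (3.03% of all tested genes) and 1, FOXJ1, in H9 chronic against acute (4.64%), and 0 in the other contrasts where edgeR passed 0. It gave no adjusted p for CLIC6, FOLR1 and KL in H1 acute and in H1 chronic against acute, nor for FOLR1 in H1 chronic and in H9 chronic against acute. Acute and chronic contrasts of a line share their control libraries.

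In H9 acute against control the largest of these fold changes in either direction were CLIC6 at -0.77 ± 1.32 and PRLR at 0.40 ± 0.23, both at an edgeR adjusted p of 1. Genes that act with the receptors and carriers were read from further lists. For prolactin receptor signalling, 0 of 8 tested genes passed in H9 chronic (median -0.12) and 0 of 8 in H1 chronic (median 0.32). For the klotho and FGF23 axis it was 0 of 7 in H9 chronic (median -0.21) and 0 of 7 in H1 chronic (median 0.13), and for folate handling 0 of 9 in H9 chronic (median 0.03) and 0 of 9 in H1 chronic (median 0.08). Among 10 genes of thyroid hormone and retinol handling 0 passed in H9 chronic, and 2 passed as higher in H1 chronic, LRP2, an endocytic receptor of retinol-binding protein, at 1.72 ± 0.33 (edgeR adjusted p 0.0132) and DIO3, which inactivates thyroid hormone, at 3.21 ± 0.67 (edgeR adjusted p 0.0206).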

How the data were processed

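RNA was measured in 18 libraries in 6 groups of 3, taken from the labels. The authors deposited raw counts per gene symbol, with no normalization per the file headers, and TPM of the same genes. GRCh38 and hg38, 2 names of 1 build, are given by the submitters' processing notes. No source used here states the aligner, the counter or the annotation. The authors also deposited 2 tables of genes by comparison, with p-values, log2 fold changes, a signed fold change read as a score, and a largest group mean, a signal of unstated unit. No source used here states their tool. The libraries were strand-specific per the labels' protocols, and how strand was counted is not given.

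Counts were scaled by TMM, filtered by filterByExpr over the 6 groups and tested with the quasi-likelihood F test of edgeR 4.0.16 in R 4.3.3. It was 1 fit of 17 libraries over 17567 genes with Benjamini-Hochberg adjustment, and a gene passed at an adjusted p under 0.05. The SE is the fold change divided by the square root of F. Alternatives were DESeq2 1.42.0, limma 3.58.1 on log2(TPM + 1) and log2(TPM + 0.1), RLE and upper-quartile scaling, other filters, all 18 libraries, only the libraries compared, a covariate for libraries with more blood than gut reads, and leaving out each library. Of the symbols, 28 had turned into dates and held 0.439% of counts. The fit was also run on counts simulated from its own means and dispersions, after the main fit, and that outcome is not given here.

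The 8 genes are always named. A list is given by its counts and median, and names up to 4 tested genes of smallest p. Some lists, such as floor plate, are given by their sums only. Genes, lists and tests were chosen with earlier results of these data known, and some genes named from lists were picked after their values were seen. Replicate numbers run on through the groups and pair no libraries.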

Additional observations from a re-analysis of the deposited data

Results flagged for a closer look

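The effect of chronic dopamine on FOXJ1 differed between the lines in the test of the difference itself. The H9 minus H1 difference of the log2 fold changes was -2.73 ± 0.59 with an edgeR adjusted p of 0.0258, from -1.75 ± 0.38 in H9 and 0.99 ± 0.46 in H1. All 3 H9 chronic libraries lay below their controls and all 3 H1 chronic libraries lay above theirs. The share of all tested genes that do so was not counted, and the H1 side rests on 2 control libraries with 43 to 47 reads of FOXJ1. No group held 4 or more libraries, so single libraries were not screened for distance from their group.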

How the results depend on the processing

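The count of the 8 genes that passed moved as follows. For H1 chronic against control it was 0, and 1 with DESeq2 (TTR), 1 with limma on log2(TPM + 0.1) (FOLR1), 2 without the low-count filter (TTR and FOLR1) and 0 to 1 without single libraries. For H9 chronic against control it was 1, and 0 with only the compared libraries, 0 with the split as covariate and 0 to 1 without single libraries. For H9 chronic against acute it was 0, and 1 with DESeq2, 1 with all 18 libraries, 1 with limma on log2(TPM + 1), 1 without the filter and 0 to 1 without single libraries. For the difference of the chronic effect it was 1, and 3 with DESeq2, 2 with limma on log2(TPM + 0.1), 3 without the filter and 0 to 2 without single libraries. For H9 against H1 it was 4, and 5 with DESeq2, 3 with limma on log2(TPM + 0.1), 3 higher and 2 lower without the filter and 3 to 5 without single libraries. The other 4 contrasts stayed at 0 in those fits. The causes were not tested.

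Over all tested genes, edgeR passed 114 in H9 chronic, against 3 to 143 without single libraries and 4 with only the compared libraries, and 280 in H1 chronic, against 16 to 561 without single libraries. Counts within lists moved with them. In H9 chronic, hem and roof plate had 0 to 4 lower genes and mesenchyme 0 to 5 without single libraries. In H1 chronic, other choroid plexus genes had 0 to 3 higher genes, retinal pigment epithelium 0 to 4 and thyroid hormone and retinol handling 0 to 3.

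Directions turned in a few fold changes, none of which passed. CLIC6 in H9 chronic was 1.36 with the split as covariate, and AQP1 in H9 against H1 was 0.00715 with limma on log2(TPM + 0.1). Without single libraries, CLIC6 ran from -1.41 to 3.78 and AQP1 from -0.77 to 0.91 in H1 acute, FOXJ1 from -0.73 to 0.0291 in H9 acute, and CLIC6 from -1.12 to 0.61 and AQP1 from -0.41 to 0.15 in H9 against H1.

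With library 9 in the H1 control mean, CLIC6 and KL stood at 0.113 CPM each, SLC4A5 at 5.57, PRLR at 1.503 and FOXJ1 at 1.69 CPM. In the 6 H9 libraries with more gut than blood reads, an alternative added after seeing the data, r with TTR was -0.0163 for CLIC6, -0.0716 for KL and 0.805 for FOLR1 (exact permutation, adjusted p 0.141). Leaving out single H9 libraries, r with TTR ran from 0.162 to 0.608 for CLIC6, 0.787 to 0.897 for FOLR1, 0.0874 to 0.525 for KL, 0.398 to 0.711 for AQP1, -0.60 to 0.0302 for SLC4A5, -0.66 to -0.17 for PRLR and 0.835 to 0.937 for FOXJ1.

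No paired analysis was possible because the groups share no replicate numbers. Low read counts limit CLIC6, FOLR1, KL and, outside libraries 1, 3 and 4, TTR, and 2 H1 controls limit every H1 contrast to control.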
